A study of Mus musculus with 12 samples.

Results

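A set of 10 genes of the TNF receptor superfamily was followed in splenic regulatory T cells (Treg) of mice: Tnfrsf4 (OX40), Tnfrsf9 (4-1BB), Tnfrsf18 (GITR), Tnfrsf8 (CD30), Cd27, Tnfrsf1b (TNFR2), Tnfrsf25 (DR3), Tnfrsf14 (HVEM), Tnfrsf1a (TNFR1) and Fas. They were chosen by name with earlier results of these data known, and all of them were found among the 41457 genes of the deposited tables. RNA was measured by RNA-Seq in 12 libraries, 3 for each combination of genotype and culture. CD18Foxp3 Treg came from CD18fl/fl Foxp3Cre mice, in which cells that express Foxp3 lose CD18, the β2-integrin chain encoded by Itgb2. CD18wt Treg came from CD18wt/wt Foxp3Cre littermates, so that the control mice carried the Foxp3-driven Cre too, and the animals were matched by age and sex without their age being given. In both genotypes the cells were sorted as RFP+CD4+ cells by an RFP reporter that the same Cre switches on. They were kept overnight in IL-2 at 5 U/mL, either alone (unstimulated) or with antibodies to CD3 at 1 μg/mL and to CD28 at 2 μg/mL (stimulated). The labels call the 3 replicates of a group biological. The study shows them as individual mice. Whether the same mice gave the unstimulated and the stimulated cells is not stated.

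Receptors of this superfamily bind trimeric ligands and pass the signal on in different ways. OX40, 4-1BB, GITR, CD30, CD27, TNFR2 and HVEM recruit TRAF adaptors, which lead to NF-κB and support survival and proliferation of lymphocytes. TNFR1, Fas and DR3 carry a death domain in their cytoplasmic part and can also lead to caspases. Treg are known for high OX40, GITR and TNFR2, and 4-1BB and OX40 are inducible costimulatory receptors of activated T cells, whereas CD27 is a receptor of resting T cells that is lost with differentiation.

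The libraries held 10665174 to 19005482 exon reads, and each of the 10 genes had at least 173 exon reads in every library and passed the filter on low counts in all 5 comparisons. Replicate 3 of the unstimulated CD18wt Treg stood apart from its group. It was the shallowest library, had the lowest share of gene reads over introns (3.32%, against 3.66% to 5.99% in the others), and correlated with the other replicates of its group at 0.963 and 0.966 (Pearson's r of log2 CPM over genes), where these correlated with each other at 0.978. Among stimulated CD18Foxp3 libraries, replicate 1 differed most from the others, with a chi-square per gene of 39.2 and 43.3 against 8.55 between the remaining pair. Itgb2, the targeted gene, reached 387 to 465 TPM (transcript abundance scaled to the same total in every library) in unstimulated CD18wt and 229 to 257 TPM in unstimulated CD18Foxp3 libraries, and 329 to 331 against 131 to 202 TPM after stimulation. These gene totals do not show the deleted exon by itself. All 6 markers of Treg had reads in every library, with Foxp3 between 73.4 and 207 TPM. The summed level of the 6 was 1336 to 1662 TPM in unstimulated and 2214 to 3678 TPM in stimulated cells. Mean TPM of Foxp3, Il2ra, Ctla4 and Ikzf2 was higher with stimulation in both genotypes. Cd4 fell, from a mean of 614 to 366 TPM in CD18wt and from 592 to 321 TPM in CD18Foxp3 Treg. Cd3e fell from 369 to 265 TPM and from 394 to 268 TPM. Ncr1 of NK cells had no exon read in any of the 12 libraries. The summed levels of other cell types were at most 38.8 TPM for 5 B cell, 5.56 for 3 plasma cell, 19.7 for 5 myeloid, 30.9 for 3 erythroid and 146.5 for 5 CD8 and NK cell markers, the last mostly Nkg7 (51.1 to 134 TPM). B cell markers moved with the culture, from 27.2 to 38.8 TPM without to 9.49 to 21.3 TPM with stimulation. Single markers of other cells passed the threshold as well: Klrb1c of NK cells had 27 to 83 exon reads in each unstimulated and 0 to 4 in each stimulated library, Cd8b1 fell by 1.09 (SE 0.25) in CD18wt and by 0.76 (SE 0.20) in CD18Foxp3 Treg on the log2 scale but passed in neither on the TPM scale, Lyz2 of myeloid cells fell from 29 to 130 reads to 0 to 9 in CD18wt Treg, and Sdc1 of plasma cells rose from 2 to 19 reads to 54 to 66 in CD18Foxp3 Treg. Other markers of the same lists went the other way. Cd68 of myeloid cells rose from a mean of 4.20 to 6.45 TPM in CD18wt Treg. In CD18Foxp3 Treg Cd68 rose from 3.57 to 8.90 TPM, while Jchain of plasma cells fell from 2.23 to 0.18 TPM. Nkg7 rose from 57.5 to 99.5 TPM in CD18wt and from 80.4 to 101.3 TPM in CD18Foxp3 Treg. The part of all these markers in the results of stimulation was not tested. In such bulk RNA, fewer cells of a type and less RNA per cell cannot be told apart.

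Of the 10 genes, 7 lie on chromosome 4 of GRCm38, which held 5.97% of the 12636 genes tested in the 12 libraries together. Tnfrsf4 (ENSMUSG00000029075, 4:156013843-156016612, plus strand) and Tnfrsf18 (ENSMUSG00000041954, 4:156026164-156028895, plus strand) are 9551 bases apart with 2 annotated genes in between. Tnfrsf1b (ENSMUSG00000028599, 4:145213463-145246870, minus strand) and Tnfrsf8 (ENSMUSG00000028602, 4:145267137-145315164, minus strand) are 20266 bases apart with no gene in between. The others on chromosome 4 are Tnfrsf9 (ENSMUSG00000028965, 4:150914562-150946102), Tnfrsf25 (ENSMUSG00000024793, 4:152115934-152120119) and Tnfrsf14 (ENSMUSG00000042333, 4:154921933-154928563). Cd27 (ENSMUSG00000030336, 6:125232622-125237010) and Tnfrsf1a (ENSMUSG00000030341, 6:125349362-125362484) are 112351 bases apart on chromosome 6. Fas (ENSMUSG00000024778, 19:34290659-34327770) lies on chromosome 19. Reads were placed uniquely at 99.88% or more in every gene but Tnfrsf18, where 78.1% were: of its 59-base words, 17.3% also occur in Gm16008, an antisense gene on the opposite strand with 8 to 60 reads a library. The kit is not stated to keep the strand, so reads of the overlapping pairs Tnfrsf18 and Gm16008, Tnfrsf9 and Camta1 (12 to 189 reads) and Cd27 and Vamp1 (152 to 457 reads) cannot be told apart by strand.

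To show the DNA before the start sites of genes that moved most, the 250 bases upstream are printed for Tnfrsf4, Tnfrsf9 and Tnfrsf8, which had the largest rises on stimulation, and for Cd27 and Fas, which fell in CD18wt Treg. Each runs 5′ to 3′ on the gene's strand and ends at the base before a RefSeq start site (GRCm38.p6). Capitals mark matches to the NF-κB motif GGGANTTCC or to the AP-1 motif TGANTCA, searched on both strands. The motifs CACGTG, TGACGTCA and TATAAA were searched too. CACGTG is left in lower case and overlaps neither of the marked motifs.
Tnfrsf4, chr4:156013445-156013694, plus strand: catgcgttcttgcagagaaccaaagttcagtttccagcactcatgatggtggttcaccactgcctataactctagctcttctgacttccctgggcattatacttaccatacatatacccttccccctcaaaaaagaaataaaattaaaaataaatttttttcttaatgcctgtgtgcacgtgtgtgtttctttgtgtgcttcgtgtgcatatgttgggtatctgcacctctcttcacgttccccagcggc
Tnfrsf9, chr4:150927749-150927998, plus strand: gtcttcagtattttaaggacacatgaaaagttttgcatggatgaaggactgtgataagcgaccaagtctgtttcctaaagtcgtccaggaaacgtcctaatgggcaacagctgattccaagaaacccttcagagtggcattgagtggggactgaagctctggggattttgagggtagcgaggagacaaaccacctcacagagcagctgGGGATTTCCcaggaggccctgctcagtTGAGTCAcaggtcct
Tnfrsf8, chr4:145315165-145315414, minus strand: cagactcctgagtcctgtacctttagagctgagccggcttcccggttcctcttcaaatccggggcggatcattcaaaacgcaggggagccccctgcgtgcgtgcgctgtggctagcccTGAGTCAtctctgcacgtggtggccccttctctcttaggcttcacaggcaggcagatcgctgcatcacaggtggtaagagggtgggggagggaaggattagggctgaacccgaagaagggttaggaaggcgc
Cd27, chr6:125237028-125237277, minus strand: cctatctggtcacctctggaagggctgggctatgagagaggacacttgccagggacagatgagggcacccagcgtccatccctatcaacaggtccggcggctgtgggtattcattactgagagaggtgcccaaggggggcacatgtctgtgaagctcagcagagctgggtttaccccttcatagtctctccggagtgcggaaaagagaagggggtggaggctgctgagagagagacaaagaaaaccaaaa
Fas, chr19:34290409-34290658, plus strand: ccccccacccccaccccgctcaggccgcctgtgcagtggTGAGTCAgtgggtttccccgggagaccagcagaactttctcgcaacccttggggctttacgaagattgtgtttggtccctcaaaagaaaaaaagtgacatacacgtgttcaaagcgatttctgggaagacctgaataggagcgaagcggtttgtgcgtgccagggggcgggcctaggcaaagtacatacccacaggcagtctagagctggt
The Tnfrsf9 stretch precedes the downstream one of a pair of annotated starts and holds the NF-κB motif at position -42 and an AP-1 match at -15, where -1 is the base before the start site. The stretch before the upstream start of Tnfrsf9 holds neither motif and is not printed. Tnfrsf8 has an AP-1 match at -132 and Fas at -211. Over 12 windows of the 10 genes (the 250 bases upstream and the first 50 of the transcript; Tnfrsf9 and Tnfrsf25 have a pair of starts each), TGANTCA was found in 3, against 7.81% of 32851 promoter windows of the genome. GGGANTTCC was found in 1 window, that of Tnfrsf9, against 1.68% of all windows, and CACGTG in 3 (Tnfrsf8, Tnfrsf4 and Fas) against 7.15%. TGACGTCA and TATAAA were found in 0 of the 12 windows, against 1.79% and 13.6% of all windows. Such matches describe letters and were not tested for binding.

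In unstimulated Treg, the genes fell into a high and a low group. Tnfrsf18 was the highest, with 369, 445 and 288 TPM in the CD18wt libraries (367 ± 78.7 TPM, SD, n = 3) and 405, 384 and 441 TPM in the CD18Foxp3 libraries (409.6 ± 28.8 TPM, n = 3). Tnfrsf4 (318 ± 47.4 and 316 ± 40.2 TPM), Cd27 (278 ± 23.9 and 299 ± 8.03 TPM), Tnfrsf1b (233 ± 15.1 and 263 ± 30.2 TPM) and Tnfrsf9 (162 ± 13.9 and 171 ± 13.2 TPM) followed in this order in both genotypes. All 5 were among the 722 highest genes of 41457 in CD18wt cells. Fas came next with 63.0 ± 5.59 and 65.9 ± 1.81 TPM. Tnfrsf25 (39.0 ± 10.2 and 38.3 ± 5.01 TPM), Tnfrsf14 (38.3 ± 1.48 and 36.8 ± 1.63 TPM) and Tnfrsf1a (27.9 ± 1.29 and 26.8 ± 3.69 TPM) were lower, and Tnfrsf8 was the lowest with 13.4 ± 2.87 and 11.4 ± 1.91 TPM. The libraries of neighbours in this order overlapped for Tnfrsf4 and Cd27 and for Tnfrsf25 and Tnfrsf14 in both genotypes, for Tnfrsf18 and Tnfrsf4 in CD18wt and for Cd27 and Tnfrsf1b in CD18Foxp3 Treg, and these neighbours did not differ beyond their spread. TNFR2, the TNF receptor without a death domain, exceeded TNFR1 in every library, by 7.84 to 8.64 times in unstimulated CD18wt and 7.73 to 12.7 times in unstimulated CD18Foxp3 Treg on the TPM scale.

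**Figure D1:**
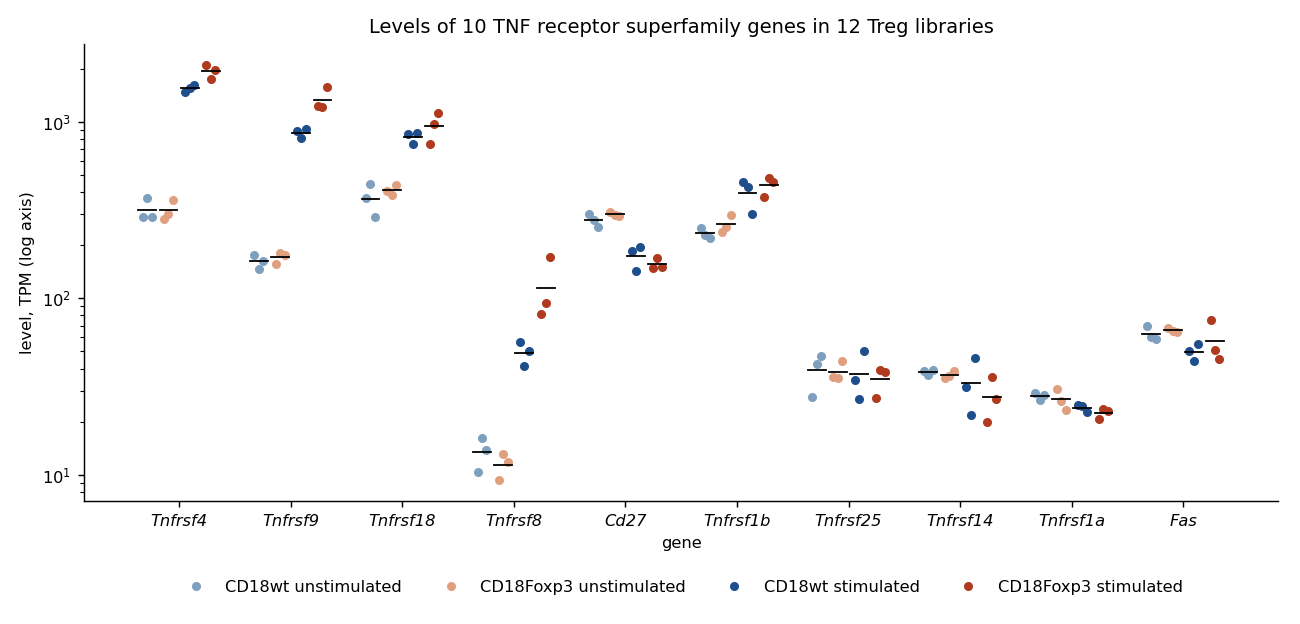
Levels of the 10 genes in TPM on a log axis, with 1 point per library (3 per group) and a bar at the group mean. Stimulated libraries of Tnfrsf4, Tnfrsf9, Tnfrsf18, Tnfrsf8 and Tnfrsf1b lie above the unstimulated ones, those of Cd27 below, and Tnfrsf8 is the gene with the widest gap between stimulated genotypes (41.2 to 56.3 against 81.2 to 171 TPM).

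Stimulation raised the costimulatory receptors OX40, 4-1BB, GITR and CD30 in both genotypes and lowered CD27. A gene was taken to pass when it changed 1.5-fold or more with an adjusted p no higher than 0.01 (edgeR's quasi-likelihood test on exon reads scaled by TMM, Benjamini-Hochberg adjustment over all genes tested). In CD18wt Treg, 4 of the 10 genes were higher, where 18.7% of all genes tested were, and 3 were lower, where 14.9% were (33.6% in either direction). In CD18Foxp3 Treg, 4 were higher (20.9% of all genes) and 3 were lower (17.6%, and 38.6% in either direction). An unadjusted p under 0.05 was found for 8 of the 10 in CD18wt and for all 10 in CD18Foxp3 Treg, against 55.2% and 61.4% of all genes. The 10 were chosen with earlier results of these data known, so these counts beside the shares are a description and not a test. Of the 10, 6 passed in both genotypes. The median log2 fold change of the 10 was -0.06 in either genotype, and that of all genes tested 0.02 in CD18wt and 0.01 in CD18Foxp3 Treg.

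Tnfrsf4, the receptor of OX40 ligand, had 290.3, 373 and 290.6 TPM in unstimulated and 1483, 1553 and 1625 TPM in stimulated CD18wt libraries. It had 283, 303 and 361 TPM in unstimulated and 2115, 1753 and 1982 TPM in stimulated CD18Foxp3 libraries. Every stimulated library lay above every unstimulated one, and the log2 fold change was 1.89 (SE 0.14, adjusted p = 6e-07) in CD18wt and 2.27 (SE 0.13, adjusted p = 2.87e-06) in CD18Foxp3 Treg. With these levels Tnfrsf4 ranked 87th and 70th of all 41457 genes by mean TPM.

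Tnfrsf9, which binds 4-1BB ligand and costimulates activated T cells, rose from 175, 147 and 164 TPM to 886, 808 and 915 TPM in CD18wt libraries. In CD18Foxp3 libraries it rose from 156, 180 and 177 TPM to 1236, 1211 and 1575 TPM. The log2 fold change was 2.02 (SE 0.14, adjusted p = 3.02e-07) and 2.61 (SE 0.14, adjusted p = 1.9e-06).

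Tnfrsf18, a constitutive receptor of Treg, rose less, to 861, 749 and 869 TPM in stimulated CD18wt and 750.3, 977 and 1130.3 TPM in stimulated CD18Foxp3 libraries. Its log2 fold change was 0.77 (SE 0.14, adjusted p = 6.63e-04) and 0.85 (SE 0.14, adjusted p = 8.3e-04), and it stayed past the threshold when only uniquely placed reads were counted. Tnfrsf4 and Tnfrsf18, neighbours on the chromosome, changed order: Tnfrsf4 stood at 0.79 to 1.01 times the TPM of Tnfrsf18 in unstimulated CD18wt and at 1.72 to 2.07 times in stimulated CD18wt libraries.

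Tnfrsf8, the receptor of CD30 ligand, was the lowest gene before stimulation, with 10.3, 16.0 and 13.8 TPM in CD18wt and 9.28, 13.04 and 11.8 TPM in CD18Foxp3 libraries. After stimulation it had 56.3, 41.2 and 50.0 TPM in CD18wt and 81.2, 93.9 and 171 TPM in CD18Foxp3 libraries. The log2 fold change was 1.47 (SE 0.18, adjusted p = 2.92e-05) in CD18wt and 2.98 (SE 0.28, adjusted p = 2.94e-05) in CD18Foxp3 Treg, the largest of the 10 in the latter. Its neighbour Tnfrsf1b did not pass in either genotype.

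Among the genes that fell, Cd27, the receptor of CD70, had 302, 278 and 254 TPM in unstimulated and 185, 142 and 196 TPM in stimulated CD18wt libraries. In CD18Foxp3 Treg it had 308, 297 and 292 TPM before and 149, 169 and 149.9 TPM after stimulation. No stimulated library reached an unstimulated one, with a log2 fold change of -1.08 (SE 0.13, adjusted p = 1.87e-05) and -1.30 (SE 0.10, adjusted p = 1.07e-05).

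Of the 3 death domain receptors, Tnfrsf1a fell in both genotypes and Fas in CD18wt Treg. Tnfrsf1a, the receptor for soluble TNF and lymphotoxin, had 29.0, 26.5 and 28.2 TPM in unstimulated and 24.7, 24.6 and 22.8 TPM in stimulated CD18wt libraries. It changed by -0.61 (SE 0.17, adjusted p = 0.0086) in CD18wt and -0.63 (SE 0.16, adjusted p = 0.0073) in CD18Foxp3 Treg, just past the threshold of 1.5-fold. Fas, which induces apoptosis of T cells, changed by -0.74 (SE 0.14, adjusted p = 8.66e-04) in CD18wt Treg. In CD18Foxp3 Treg Fas had a log2 fold change of -0.56 (SE 0.19, adjusted p = 0.033) and did not pass; its stimulated libraries held 75.0, 51.2 and 45.1 TPM, and without the first of them it passed at -0.85 (adjusted p = 1.96e-05). Tnfrsf25 had values of -0.49 (SE 0.24, adjusted p = 0.11) and -0.50 (SE 0.16, adjusted p = 0.027) and passed in neither genotype.

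Tnfrsf14, which binds LIGHT and BTLA, fell in CD18Foxp3 Treg (-0.79, SE 0.20, adjusted p = 0.0085) and did not pass in CD18wt Treg (-0.63, SE 0.23, adjusted p = 0.035). Stimulated libraries varied widely in this gene, with 31.2, 21.9 and 46.1 TPM in CD18wt and 19.98, 35.9 and 26.9 TPM in CD18Foxp3 Treg, against 35.4 to 39.4 TPM in the 6 unstimulated libraries. Without stimulated CD18wt replicate 3, Tnfrsf14 passed in CD18wt too, at -0.92 (adjusted p = 0.0042). Tnfrsf1b, the receptor for membrane TNF that supports Treg proliferation, had values of 0.37 (SE 0.18, adjusted p = 0.095) and 0.37 (SE 0.12, adjusted p = 0.023). Its TPM was nevertheless higher in every stimulated library (299.7 to 459 against 221 to 250.4 TPM in CD18wt, 378 to 483 against 237 to 296 TPM in CD18Foxp3).

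The calls of the moderate changes depend on the scaling. TMM centres the median gene near 0, but on the TPM scale, which has the same sum in every library, the median of all genes moved by 0.36 in CD18wt and 0.31 in CD18Foxp3 Treg (limma on log2(TPM + 1)). Of all calls, 55.7% were rises with TMM and 80.7% with TPM in CD18wt Treg, and 54.3% and 75.9% in CD18Foxp3 Treg. Relative to TPM alone, Tnfrsf1b rose by 0.74 in either genotype (adjusted p = 0.0032 and 0.002), and Tnfrsf1a, Fas and Tnfrsf14 no longer passed, with -0.21, -0.34 and -0.27 in CD18wt and -0.24, -0.24 and -0.44 in CD18Foxp3 Treg. Tnfrsf4, Tnfrsf9, Tnfrsf18, Tnfrsf8 and Cd27 passed in the same direction on both scales, and none of the 10 turned its direction. With 3 against 3 libraries, the exact two-sided permutation test of log2(TPM + 1) can reach no less than p = 0.1. The permutation test gave p = 0.1 for the 8 genes whose CD18wt groups did not overlap: the 5 higher ones, where 47.8% of all genes were higher without overlap, and Cd27, Tnfrsf1a and Fas, where 14.2% were lower. In CD18Foxp3 Treg the same 5 genes (47.9% of all genes) and Cd27 (19.2%) did not overlap.

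The Tnfrsf1a call in CD18wt Treg was lost without any 1 of the libraries but stimulated replicate 2 (-0.72 to -0.54 over the 6 fits). In CD18Foxp3 Treg it was lost without unstimulated replicate 1 or 2 or stimulated replicate 2 or 3, and that of Tnfrsf14 without any unstimulated replicate or stimulated replicate 3. The 4 rises and the fall of Cd27 were kept without any 1 library in both genotypes, including the unstimulated CD18wt replicate 3 that stood apart.

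**Figure D2:**
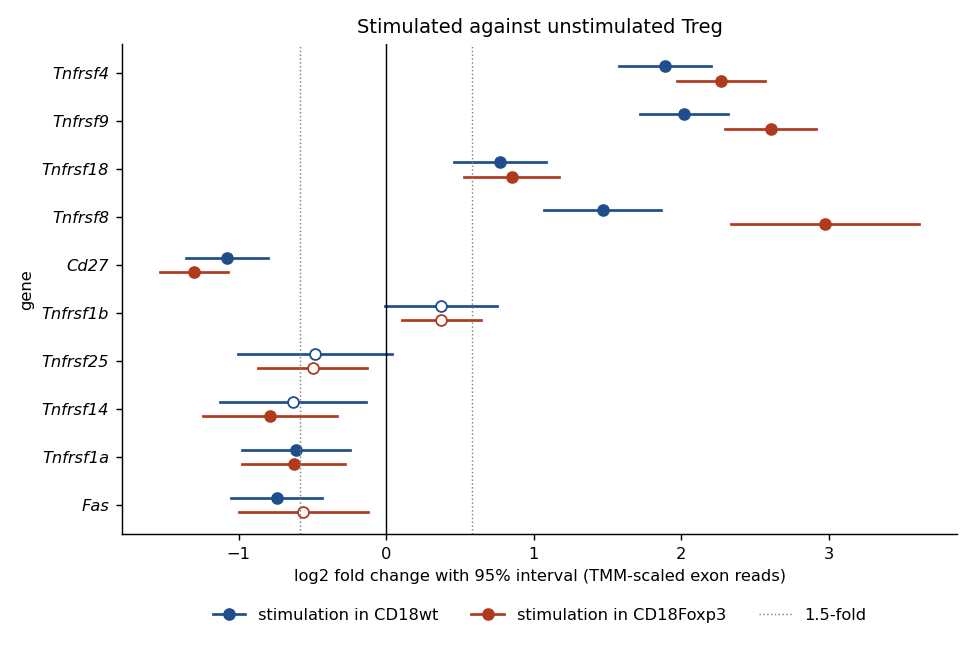
Log2 fold change of stimulated against unstimulated Treg (x axis, TMM-scaled exon reads, 3 against 3 libraries) for each gene (y axis), with bars for 95% intervals, filled points for genes past the threshold and dotted lines at 1.5-fold. Tnfrsf4, Tnfrsf9, Tnfrsf18 and Tnfrsf8 lie to the right in both genotypes and Cd27 to the left, while the intervals of Tnfrsf18, Tnfrsf1b, Tnfrsf25, Tnfrsf14, Tnfrsf1a and Fas cross a dotted line.

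Without stimulation, no receptor differed between the genotypes past the threshold. Of 11829 genes tested, 0.135% passed (0.0507% higher and 0.0845% lower in CD18Foxp3 Treg). All 10 log2 fold changes of CD18Foxp3 against CD18wt Treg lay between -0.26 (Tnfrsf8, SE 0.19) and 0.14 (Tnfrsf1b, SE 0.09), with unadjusted p of at least 0.14 (edgeR's quasi-likelihood test), where 9.59% of all genes had a p under 0.05. The libraries of the genotypes overlapped in every one of the 10, whereas 8.74% of all genes were higher and 6.9% lower without overlap. The 95% intervals bound the differences: -0.27 to 0.20 for Tnfrsf4, -0.16 to 0.26 for Tnfrsf9, -0.12 to 0.39 for Tnfrsf18, -0.10 to 0.26 for Cd27 and -0.69 to 0.16 for Tnfrsf8. Taken singly, without adjustment for the 10 genes, they exclude a 1.5-fold difference in either direction for all of the genes but Tnfrsf8. The interval of Tnfrsf8 holds a lower level of that size in CD18Foxp3 Treg.

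After stimulation, CD30, 4-1BB and OX40 had higher levels in each CD18Foxp3 library than in any CD18wt library, but no gene of 11930 passed the threshold (583 genes, 4.89%, had an unadjusted p under 0.05, and DESeq2 called 17 higher and 5 lower). Tnfrsf8 was higher by a log2 fold change of 1.25 (SE 0.25, 95% interval 0.69 to 1.81), 14th of all genes by p (adjusted p = 0.37). Tnfrsf9 had 0.64 (SE 0.15, interval 0.31 to 0.97), 27th by p (adjusted p = 0.49). Tnfrsf4 had 0.34 (SE 0.15, interval 0.02 to 0.66, adjusted p = 0.98), and these 3 were the ones of the 10 with an unadjusted p under 0.05. These 3 of the 10 were higher without overlap, where 5.02% of all genes were (4.41% were lower), and the exact permutation test gave each p = 0.1, the smallest it can give. Other tests placed Tnfrsf8 past the threshold: adjusted p was 7.9e-04 with DESeq2, 0.0034 with edgeR's likelihood ratio test and 2.56e-08 without a filter on low counts, and 0.12 to 0.78 in the other 8 alternatives. The fit without a filter called 39 genes higher and 22 lower, and its p values are not of like size to those of the main fit. The level of Tnfrsf8 was highest in CD18Foxp3 replicate 3 (171 TPM), and without that library the value was 0.84 (adjusted p = 0.43). Tnfrsf9 had adjusted p of 0.03 with DESeq2 and 0.06 with the likelihood ratio test.

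The other 7 genes overlapped between stimulated genotypes. Tnfrsf18 had 0.22 (SE 0.16), Fas 0.22 (SE 0.21), Tnfrsf1b 0.14 (SE 0.19), Tnfrsf25 -0.07 (SE 0.22), Tnfrsf1a -0.10 (SE 0.19), Cd27 -0.14 (SE 0.15) and Tnfrsf14 -0.24 (SE 0.28). The summed level of the 6 Treg markers was higher in stimulated CD18Foxp3 libraries too, at 2900.0 to 3678 TPM against 2214 to 2925 TPM, with some overlap. The highest of the 6 were Il2ra (mean 1372 against 980 TPM) and Ctla4 (925 against 580 TPM). Foxp3 and Ikzf2 also had higher means. Cd4 went the other way without overlap (279 to 348 against 349 to 386 TPM), and Cd3e was alike (mean 268 against 265 TPM). None of the 6 passed the threshold in that comparison, and their part in the values of Tnfrsf8, Tnfrsf9 and Tnfrsf4 was not tested. Whether stimulation acted differently in the genotypes was tested as an interaction over all 12 libraries. No gene of 12636 passed (485 genes, 3.84%, had an unadjusted p under 0.05, and DESeq2 called 0 higher and 1 lower). Tnfrsf8 had an interaction of 1.51 on the log2 scale (SE 0.36, adjusted p = 0.79), Tnfrsf9 of 0.59 (SE 0.19, adjusted p = 0.99) and Tnfrsf4 of 0.37 (SE 0.19, adjusted p = 0.99). The comparisons of culture and of genotype share libraries, so that a library high in 1 of them is counted in both.

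**Figure D3:**
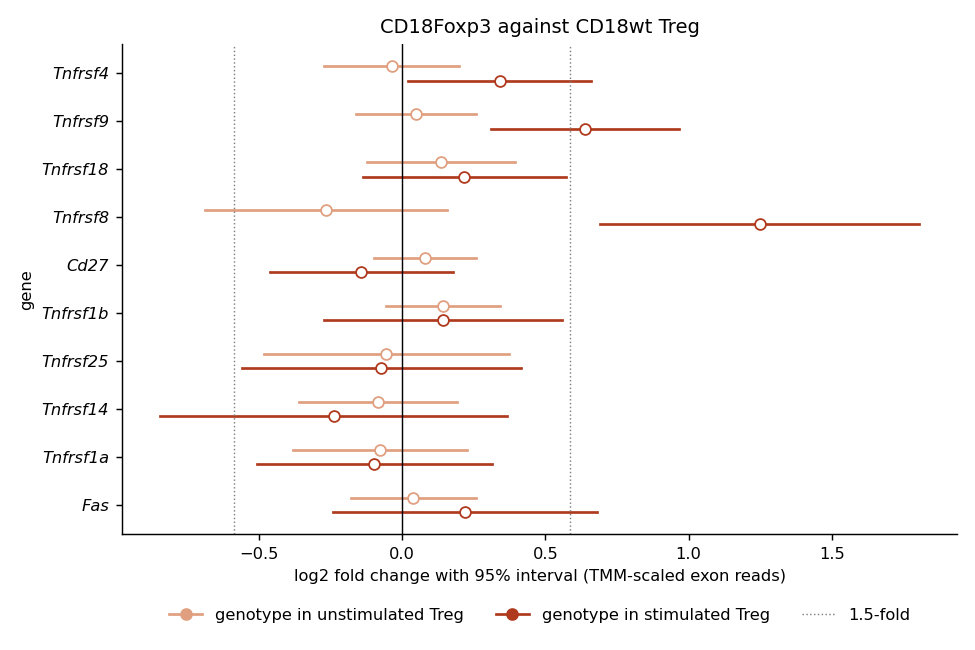
Log2 fold change of CD18Foxp3 against CD18wt Treg (x axis, TMM-scaled exon reads, 3 against 3 libraries) for each gene (y axis) in unstimulated and stimulated cells, with bars for 95% intervals and dotted lines at 1.5-fold. No point is filled, since no gene passed the threshold, and in stimulated Treg the intervals of Tnfrsf8 (0.69 to 1.81), Tnfrsf9 (0.31 to 0.97) and Tnfrsf4 (0.02 to 0.66) lie above 0.

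The makeup of the family changed with culture. The 10 genes summed to 1541 ± 126 TPM (SD, n = 3) in unstimulated CD18wt, 1637 ± 97.9 TPM in unstimulated CD18Foxp3, 4014 ± 152 TPM in stimulated CD18wt and 5095 ± 434 TPM in stimulated CD18Foxp3 Treg. Tnfrsf4, Tnfrsf9 and Tnfrsf18 together made up 52.8% to 58.4% of that sum in the unstimulated CD18wt libraries and 79.4% to 82.6% in the stimulated ones, and 53.8% to 55.9% and 81.5% to 84.5% in the CD18Foxp3 libraries. Tnfrsf4 stood at 0.96 to 1.34 times the TPM of Cd27 in unstimulated and 8.03 to 10.9 times in stimulated CD18wt Treg. In stimulated CD18Foxp3 Treg that ratio was 10.4 to 14.2. Tnfrsf1b rose to 13.2 to 18.6 times Tnfrsf1a in stimulated CD18wt and 18.3 to 20.5 times in stimulated CD18Foxp3 Treg, and the genotypes overlapped there.

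**Figure D4:**
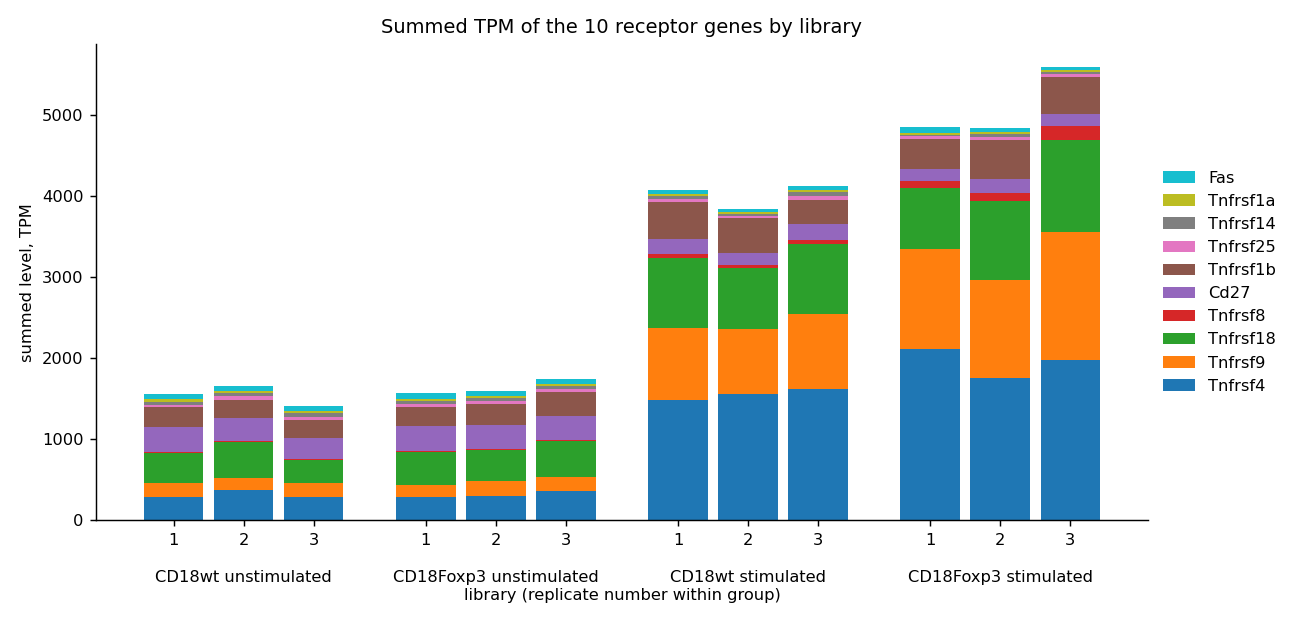
Summed TPM of the 10 genes (y axis, from 0) in each of the 12 libraries (x axis, by group and replicate number), with 1 coloured block per gene. The sum lies between 1405 and 1749 TPM in the unstimulated and between 3842 and 5596 TPM in the stimulated libraries, mostly through Tnfrsf4, Tnfrsf9 and Tnfrsf18.

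The ligand genes of the superfamily differed widely in level in Treg, from Ltb (mean 1269 TPM in unstimulated CD18wt Treg) to genes with few or no exon reads. Of 18 ligand genes of the superfamily, 13 could be tested in CD18wt, and 3 rose and 1 fell on stimulation, where 18.7% and 14.9% of all genes did. In CD18Foxp3 Treg 12 were tested, and 3 rose and 2 fell, where 20.9% and 17.6% of all genes did. The median log2 fold change was 0.25 and 0.08. Lta, which encodes lymphotoxin α, rose from 38.4, 39.9 and 52.7 TPM to 492, 640.5 and 584 TPM in CD18wt libraries (3.32, SE 0.20, adjusted p = 1.52e-07), and by 3.04 (SE 0.16, adjusted p = 1.95e-06) in CD18Foxp3 Treg. Tnf, a ligand of TNFR1 and TNFR2, rose by 3.16 (SE 0.31, adjusted p = 5.49e-05) and 2.35 (SE 0.15, adjusted p = 3.54e-06). Tnfsf4, the ligand of OX40, rose by 3.04 (SE 0.51) and 3.59 (SE 0.33), from at most 2.23 TPM to between 10.5 and 19.5 TPM. Ltb, the partner of Lta in membrane lymphotoxin, fell by 1.14 (SE 0.19) and by 1.67 (SE 0.33) on the log2 scale, with 229, 753 and 574 TPM in the stimulated CD18Foxp3 libraries, where it did not pass on the TPM scale (adjusted p = 0.012). Tnfsf13b, which encodes BAFF, fell by 1.72 (SE 0.35, adjusted p = 0.0025) in CD18Foxp3 Treg.

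The other ligands of the receptors did not pass the main test. Tnfsf8, the ligand of CD30, was at 67.9 to 119 TPM in unstimulated and 103 to 183 TPM in stimulated libraries (0.18, SE 0.14, adjusted p = 0.33 and 0.46, SE 0.21, adjusted p = 0.089). Tnfsf9, the ligand of 4-1BB, was at 1.72 to 6.19 TPM before and 8.78 to 17.9 TPM after stimulation (1.42, SE 0.46, adjusted p = 0.021 and 1.05, SE 0.29, adjusted p = 0.013). Every stimulated library of Tnfsf9 lay above every unstimulated one, and it passed as higher in 7 of the 10 alternatives that tested it in CD18wt and in 8 of 11 in CD18Foxp3 Treg, but in none of the fits that leave out 1 library. Tnfsf14 (LIGHT) was at 17.9 to 40.8 TPM and Fasl at 4.56 to 15.0 TPM. Cd70, Tnfsf15 and Tnfsf18 (GITR ligand) stayed at or below 4.41, 1.52 and 0.17 TPM, and Tnfsf18 had no exon read in 11 of the 12 libraries.

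Among the 18 other receptors of the superfamily, 9 could be tested in CD18wt and 10 in CD18Foxp3 Treg, with 2 higher and 2 lower in each, against the same shares of all genes, and a median of -0.08 and 0.13. Tnfrsf10b, a death receptor for TRAIL, rose from between 1.76 and 2.54 TPM to between 16.8 and 27.3 TPM (3.05, SE 0.22, adjusted p = 3.77e-07 and 3.12, SE 0.16, adjusted p = 1.9e-06). Tnfrsf21 had 0 to 7 reads in each unstimulated and 12 to 73 reads in each stimulated library. Relt (-0.995, SE 0.26 and -1.30, SE 0.22) and Tnfrsf26 (-0.87, SE 0.17 and -1.11, SE 0.18) fell. On the TPM scale both passed in CD18Foxp3 Treg and neither in CD18wt Treg (-0.62, adjusted p = 0.091 and -0.46, adjusted p = 0.053).

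All 21 adaptors and signalling genes could be tested. In CD18wt Treg 2 rose and 4 fell, where 18.7% and 14.9% of all genes did. In CD18Foxp3 Treg 4 rose and 8 fell, where 20.9% and 17.6% of all genes did. The median log2 fold change was -0.26 and -0.25. Most of the falls depended on the scaling: with limma on log2(TPM + 1), Cyld (-0.62, adjusted p = 0.0024) was the 1 of the 4 that passed in CD18wt Treg, while Traf5 (-0.23), Birc2 (-0.71, adjusted p = 0.024) and Ikbke (-0.67, adjusted p = 0.071) did not. In CD18Foxp3 Treg Ikbke (-0.88) and Tnfaip3 (-2.28) passed on that scale, and Traf2, Traf5, Tnip1, Birc2, Cyld and Map3k14 (-0.55 to -0.23) did not. The rises passed on both scales. Traf4 (1.67, SE 0.15 and 1.20, SE 0.17) and Traf6 (1.04, SE 0.13 and 0.99, SE 0.12) rose in both, while Traf5 (-0.63, SE 0.15 and -0.84, SE 0.16), which binds CD27, OX40 and CD30, fell in both, as did Cyld (-1.03, SE 0.13 and -0.90, SE 0.12), a deubiquitinase that limits NF-κB, Birc2 (-1.10, SE 0.18 and -0.85, SE 0.13) and Ikbke (-1.02, SE 0.26 and -1.28, SE 0.12). Cflar (0.66, SE 0.12), Traf3 (0.60, SE 0.14), Traf2 (-0.59, SE 0.13), Tnip1 (-0.75, SE 0.16) and Map3k14 (-0.93, SE 0.12) passed in CD18Foxp3 Treg, and the difference from CD18wt Treg was not past the threshold for any of them. With limma on log2(TPM + 1), Cflar (0.88, adjusted p = 3.87e-04) and Traf3 (0.85, adjusted p = 0.0011) passed in CD18wt Treg too. Tnfaip3, which encodes the NF-κB inhibitor A20, fell by 2.67 in CD18Foxp3 Treg (SE 0.14, adjusted p = 1.95e-06). In CD18wt Treg its value was -2.64 (SE 0.86, adjusted p = 0.065), with 244, 321 and 35.3 TPM in the unstimulated and 31.9 to 48.5 TPM in the stimulated libraries. Without unstimulated CD18wt replicate 3, it was -3.13 (adjusted p = 1.69e-07). Of the 6 fits that each leave out 1 library, Relt (1), Ikbke (2), Traf5 (3) and Tnfrsf21 (4) passed in fewer than all in CD18wt Treg, and Traf2 (1), Traf3 (1), Tnip1 (3), Tnfsf13b (4), Cflar (5) and Ltb (5) in CD18Foxp3 Treg. No gene of the 3 lists passed in a comparison of genotypes or in the interaction.

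Reads over introns were described as a share of all reads of the gene. These include the exon reads, so fewer exon reads alone raise the share. The median share of a gene's reads was highest in Fas in both cultures, with 6.90% to 16.0% (median 13.7%) in the 6 unstimulated and 15.1% to 27.4% (median 21.8%) in the 6 stimulated libraries. In Tnfrsf14 it ran from 2.95% (95% Wilson interval 1.44% to 5.97%) to 8.73% (6.28% to 12.01%) without and from 10.4% (6.90% to 15.4%) to 31.6% (26.2% to 37.6%) with stimulation. Tnfrsf25 had 1.36% to 8.51% and 9.95% to 16.9%. In Tnfrsf14, Tnfrsf25 and Tnfrsf18 (at most 0.61% against 0.69% to 1.46%) every stimulated library lay above every unstimulated one, which held for 9.2% of 11897 genes. The intervals cover counting error only. Over all genes the share was 3.32% to 5.02% in unstimulated and 3.66% to 5.99% in stimulated libraries. Tnfrsf4 kept a low share of 0.25% to 3.96% in all 12. Stimulated CD18wt replicate 2 had the lowest share over all genes among stimulated libraries and also the lowest in Tnfrsf14, Tnfrsf25, Fas and Cd27.

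**Figure D5:**
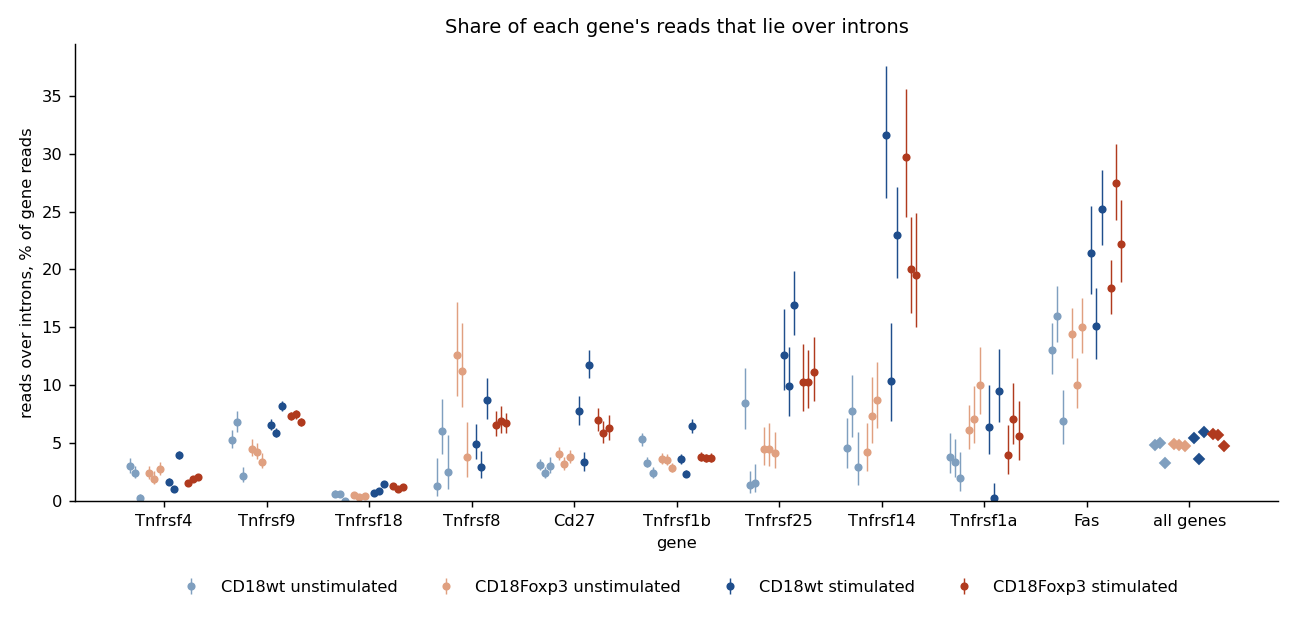
Share of gene reads over introns in percent (y axis) for each of the 10 genes and for all genes together (x axis), with 1 point per library, 3 per group, and bars for 95% Wilson intervals (diamonds without bars for all genes). Tnfrsf14, Tnfrsf25 and Fas reach 31.6%, 16.9% and 27.4% in stimulated libraries, while the points for all genes stay at or below 5.99%.

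Across the 12 libraries, the level of Tnfrsf4 went most with that of Tnfrsf9 among the 10 genes (Pearson's r = 0.98 of log2 CPM), and Tnfrsf9 with Tnfrsf8 at 0.96. Cd27 went most with Tnfrsf1a (0.91). Of all other genes tested, those most like Tnfrsf4 were Cks2 (0.998), Lrrc8b (0.996) and Rbpj (0.995). Those most like Tnfrsf9 were Adora2b (0.992), Wdr76 (0.99) and Smc2 (0.989), and those most like Tnfrsf8 were Nabp1 (0.969), Prdx4 (0.969) and Dusp16 (0.966). Cd27 was most like Evl (0.997), Slc25a45 (0.995) and Rasgrp2 (0.995), Tnfrsf18 like Armcx4 (0.98), Tnfrsf1a like Ifnar2 (0.969), Fas like Cd164 (0.98) and Tnfrsf14 like Ikbkb (0.964). Tnfrsf25 (Tmem42, 0.954) and Tnfrsf1b (4933404O12Rik, 0.948) had the lowest best values. All 12 points share the split into stimulated and unstimulated cultures, which sets most of such a value, and the correlations are given as a description without a test.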

How the data were processed

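Splenic Treg were profiled in 12 libraries, with groups and replicate numbers as the labels give them. Per the study's methods, the authors sequenced poly(A) RNA as 59-base single reads after 15 PCR cycles, and mapped and counted them in CLC Genomics Workbench on GRCm38. For each gene, the authors deposited raw counts of reads over exons, introns and the whole gene, both in total and uniquely placed. They also deposited TPM and RPKM with decimal commas, which were read as numbers. TPM recomputed from exon counts and exon lengths differed by at most 5e-11 of the value, and RPKM served only to check the order of levels.

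Exon counts were tested with edgeR 4.0.16 (R 4.3.3): filterByExpr with a minimum count of 10, TMM, robust quasi-likelihood F-test, Benjamini-Hochberg adjustment over all genes tested. Each comparison of groups used its own 6 libraries, and the interaction all 12. A call needed a fold change of 1.5 and an adjusted p of 0.01. Levels are mean and SD of TPM, compared by exact permutation (two-sided) of log2(TPM + 1). In the main fit, SE is the absolute log2 fold change divided by the square root of F. Intervals are 95% intervals from this SE, or Wilson intervals for shares, and cover counting error only in the latter. The depth of 10665174 to 19005482 exon reads left every receptor gene at 173 reads or more.

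Named were the 10 receptors, genes past the threshold in lists of 18 other receptors, 18 ligands and 21 adaptors, the ligands of the receptors, and for each receptor the 3 genes of highest correlation over the 12 libraries. The receptors and lists were chosen with earlier results of these data known. Alternatives were DESeq2 1.42.0, edgeR's likelihood ratio test, upper-quartile scaling, no filter, at least 10 reads in every library, limma 3.58.1 with a pseudocount of 1 or 0.1 TPM before log2, unique reads, an adjusted p of 0.05, a replicate block, 1 fit of all 12 libraries, and leaving out each library. Gene positions are those the authors deposited with the counts (GRCm38). The 59-base words are from GENCODE M21 transcripts, and promoters from RefSeq (GRCm38.p6). Protein sequences were not used here, and the values of 1 marker gene are not reported here. Tables and figures were made with Python 3.11.15, pandas 2.3.3 and matplotlib 3.10.9.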

Additional observations from a re-analysis of the deposited data

How the results depend on the processing

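With 3 libraries a group, moderate changes sat near the threshold. Under the 11 alternatives, the 4 rises on stimulation and the fall of Cd27 passed in both genotypes. With limma on log2(TPM + 1) or log2(TPM + 0.1), 1 receptor was lower in place of 3 in either genotype, namely Cd27; TPM shifts the median of all genes, as the report gives. Leaving out 1 library gave 1 to 4 lower receptors in CD18Foxp3 Treg. Of 110 fits of single receptors to the stimulation in CD18wt Treg under the alternatives, 101 kept direction and side of the threshold, 6 lost the call and 3 gained one. In CD18Foxp3 Treg 103 kept them, 4 lost the call and 3 gained one. Between stimulated genotypes, 1 receptor, Tnfrsf8, was higher past the threshold with DESeq2, with the likelihood ratio test and without a filter, and 1, again Tnfrsf8, passed in the interaction without a filter (adjusted p = 3.88e-07). The cause was not tested. Values near 0 turned their sign. Between unstimulated genotypes, Tnfrsf25 was at 6.38e-04 and 0.00141 with log2(TPM + 1) and log2(TPM + 0.1). In the interaction, Tnfrsf1b was at 0.0137 with DESeq2, 0.0115 with upper-quartile scaling, 0.00484 with at least 10 reads in every library and 0.0262 with the replicate block, and Tnfrsf25 at 0.00447 with DESeq2.

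Leaving out 1 library at a time turned the sign of further small values. Between unstimulated genotypes the log2 fold change ran from -0.12 to 0.074 for Tnfrsf4, -0.031 to 0.11 for Tnfrsf9, -0.19 to 0.0303 for Tnfrsf1a, -0.26 to 0.14 for Tnfrsf25 and -0.0059 to 0.10 for Fas. Between stimulated genotypes it ran from -0.051 to 0.27 for Tnfrsf1b, -0.22 to 0.155 for Tnfrsf25, -0.051 to 0.36 for Fas and -0.44 to 0.031 for Tnfrsf14. In the interaction it ran from -0.076 to 0.21 for Tnfrsf18, -0.20 to 0.15 for Tnfrsf1b, -0.13 to 0.094 for Tnfrsf1a, -0.22 to 0.21 for Tnfrsf25, -0.092 to 0.31 for Fas and -0.38 to 0.11 for Tnfrsf14. The number of genes at their rank by mean TPM ran from 6 to 10 in unstimulated CD18Foxp3 Treg.

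The replicate numbers were not taken to pair the libraries, since the correlation of same-numbered deviations exceeded 0.1 for 0 of 3 pairs in CD18wt stimulation and was 0.14, 0.07 and 0.15 in CD18Foxp3 stimulation. There each library went best with its own number, a hint from the data and not from the design, which did not hold in CD18wt Treg. With the replicate block, Tnfrsf1a in CD18wt Treg lost its call (adjusted p = 0.023) and Fas in CD18Foxp3 Treg gained one (-0.60, adjusted p = 0.0066). Over all genes, the block moved the calls between unstimulated genotypes from 6 higher and 10 lower to 16 and 25. The other tools gave 34 and 52 with DESeq2, 35 and 51 with the likelihood ratio test, 60 and 74 without a filter, 13 and 20 at an adjusted p of 0.05, 0 and 1 with log2(TPM + 1), 1 and 4 with log2(TPM + 0.1) and none in 1 fit of all 12 libraries.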
